A study of Mus musculus with 14 samples.

Results

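The hypothalamic response to a fast was compared between control mice and mice lacking Mfn1 in their POMC neurons. The quantity described is the interaction: for each gene, the fasted minus fed difference in the knockout, less the same difference in the control. All 14 arrays of the series entered it: 4 of control fed, 3 of control fasted, 4 of knockout fed and 3 of knockout fasted mice. Of 45141 probe sets on the array, 1 was kept for each of 17097 genes, the one that names only that gene and has the highest mean over all arrays.

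All mice were 12 weeks old and had a mixed background of C57Bl/6J, FVB/N and 129. Fed mice were random fed and fasted mice had a fast of 16 h. The knockout, labelled POMCMfn1KO, is specific to POMC neurons, and the Cre line and the alleles of the control mice are not given in the sources used here. POMC neurons are a small part of the hypothalamus, so RNA of the whole tissue mostly comes from cells in which Mfn1 was not deleted. In such tissue, fewer cells of a type and less RNA per cell cannot be told apart. Whether an array stands for a single mouse is not in the labels, so the spread behind the p-values may be partly technical.

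The arcuate nucleus of the hypothalamus holds neurons with POMC, from which the satiety peptide alpha-MSH is cut, and neurons with the orexigenic peptide NPY. A fast lowers leptin and insulin, raises circulating glucocorticoids and induces Npy. Mitofusin 1, the product of Mfn1, joins the outer membranes of mitochondria. The study's title concerns mitochondrial dynamics, glucose sensing and the control of insulin release, and the comparison asks whether its loss there changes how the hypothalamus responds to a fast.

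No gene passed the test of the interaction. At an adjusted p of 0.05 (limma, Benjamini-Hochberg over all genes), 0 of 17097 genes were called, which is 0.0%, and the smallest adjusted p was 0.9999. At an unadjusted p under 0.05 there were 653 genes, or 3.82%, where chance gives 855. Of these, 373 (2.18%) were above 0, meaning a higher fasted minus fed difference in knockout mice, and 280 (1.64%) were below 0. The same arrays called 1715 genes (10%) for the fasting difference averaged over both genotypes. The interaction had a median standard error (SE) of 0.12 on the log2 scale, between 0.07 and 0.25 for the middle 90% of genes, and a median 95% interval of 0.27 to either side. An absolute interaction over 0.5 was seen for 127 genes and over 1 for 5 genes.

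Some arrays stood apart before any comparison. A gene list was scored on each array by averaging its members after each was centred over the 14 arrays on the log2 scale. For 11 measured markers of cortex and hippocampus, this score was 0.903 on control fed replicate 1 and 0.476 on knockout fed replicate 4. On the other arrays it was between -0.236 and 0.027. For 13 hypothalamus markers it was -0.313 on control fed replicate 1 and 0.113 on knockout fed replicate 4. On the other arrays it was between -0.061 and 0.127. For 12 choroid plexus markers it ranged from -1.374 to 1.547, with high values on 6 of 7 knockout arrays and on control fed replicate 1. The numbers in the sample titles form a low and a high series, whose meaning is not given: the low one holds the 6 fasted arrays with knockout fed replicate 1, the high one the other 7 fed arrays. Hypothalamic peptide genes were high, with means over all arrays of 12.42 for Pmch, 10.55 for Hcrt and 10.68 for Avp, against a median of 3.64 for probe sets without a target. Nkx2-1 (4.17) and Otp (3.83), which are transcription factors of the hypothalamus, lay near that background.

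No genotype difference in the fasting response of Mfn1 itself was detectable. Mfn1 was at 8.99, 9.08, 9.10 and 8.99 on the control fed arrays, at 9.07, 9.07 and 9.05 on the control fasted, at 9.03, 9.06, 9.03 and 9.12 on the knockout fed and at 9.11, 9.04 and 9.04 on the knockout fasted arrays. The groups overlap, and the interaction was -0.02 ± 0.07 (SE), with a 95% interval of -0.17 to 0.13. The labels place the deletion in a small part of the cells, so the level of Mfn1 in whole tissue does not check the labels.

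Mfn2, the other mitofusin, had the smallest unadjusted p among 16 genes of mitochondrial fusion and fission. It was at 10.32, 10.38, 10.28 and 10.37 in control fed mice and at 10.60, 10.38 and 10.49 in control fasted mice. In knockout mice it was at 10.39, 10.37, 10.44 and 10.47 fed and at 10.38, 10.37 and 10.25 fasted. The fasted minus fed difference was therefore 0.15 in control mice and -0.08 in knockout mice. The interaction of -0.24 ± 0.08 had an unadjusted p of 0.0152 and, in limma, an adjusted p of 0.9999. It was -0.15 with the probe sets of Mfn2 averaged and -0.29 without control fasted replicate 2. Values of fed and fasted mice overlapped in each genotype.

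Of the other members of this list, Gdap1, an outer membrane protein linked to fission, was at -0.14 ± 0.06, and Fis1, an adaptor of the fission machinery, at -0.12 ± 0.06 (unadjusted p = 0.0408 and 0.0873). In all 12 of 16 were below 0, with a median of -0.05, against 7866 of 17097 and a median of 0.01 over all genes. The list of 48 subunits of oxidative phosphorylation lay between -0.11 (Sdha) and 0.10 (Cox8a), with a median of -0.01 and 0 members at an unadjusted p under 0.05.

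Genes of the arcuate feeding circuit gave no call. Npy was at 8.47, 8.65, 8.65 and 8.54 in control fed mice and at 9.74, 9.43 and 9.90 in control fasted mice. In knockout mice Npy was at 9.16, 8.76, 8.81 and 9.41 fed, above every control fed value, and at 9.28, 9.99 and 9.15 fasted. The fed and fasted ranges are separate in control mice and overlap in knockout mice. The difference was 1.11 in control and 0.44 in knockout mice, and the interaction was -0.67 ± 0.28 (unadjusted p = 0.0291; adjusted p = 0.9999 in limma). Over all alternatives it ran from -0.93 without knockout fasted replicate 2 to -0.39 without control fed replicate 1 and knockout fed replicates 1 and 4 together.

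Pomc had an interaction of -0.03 ± 0.52 and Cartpt, a peptide gene of the same neurons, one of -0.24 ± 0.25. The interval for Pomc, from -1.16 to 1.09, is wide, and control fed replicate 1 was at 5.68, against 6.48 to 7.55 on the other arrays. Without it the interaction was 0.39 for Pomc and -0.02 for Cartpt, and the sign for Pomc turned in 8 of 24 alternatives. Of 9 measured arcuate peptide genes, 7 were below 0, against 7866 of all 17097 genes. The median of these peptide genes was -0.08, and it was 0.10 without control fed replicate 1. Peptide genes of other nuclei gave 0 of 15 at an unadjusted p under 0.05. Avp, which makes vasopressin, was at -0.69 ± 0.49, Hcrt, which makes the orexins, at -0.66 ± 0.38, and Pmch, which makes melanin-concentrating hormone, at -0.28 ± 0.15. Avp and Pmch were lowest on control fed replicate 1 (9.06 and 12.06) and highest on knockout fed replicate 1 (11.27 and 12.63). Without control fed replicate 1 the interaction of Avp was -0.28. With knockout fed replicates 1 and 4 also left out it was -0.07 for Avp, -0.32 for Hcrt and -0.15 for Pmch.

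Receptors of feeding signals gave 0 of 13 at an unadjusted p under 0.05 and a median of 0.02, with the serotonin receptor gene Htr2c at 0.18 ± 0.09 and the NPY receptor gene Npy1r at -0.34 ± 0.21. Leptin and insulin signalling gave 0 of 13 and a median of 0.00. Prohormone processing gave 0 of 10, with the convertase gene Pcsk1 at -0.37 ± 0.31. Pcsk1 was lowest on control fed replicate 1, at 5.52, and without that array its interaction was -0.11. Over all alternatives it ran from -0.52 without control fed replicate 3 to -0.04 without the 3 fed arrays named above for Npy. Glucose sensing and transport gave 0 of 16, with the monocarboxylate transporter gene Slc16a1 at 0.35 ± 0.18.

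Most of the genes that changed most on fasting had the smaller fasting difference in knockout mice. If all groups have the same spread, the averaged fasting difference and the interaction are uncorrelated contrasts of this design. On that condition the first can choose genes for which the second is described. The spread was not the same for every gene. Knockout fasted arrays had an SD of 1.51 for Cdkn1a, against 0.52 in control fasted arrays, and of 0.06 for Phyhd1, against 0.14. There were 38 genes past the threshold of the average with a change over 1, and 35 of them (92.1%) had the smaller change in knockout mice. Over all genes tested the share was 51.7%. Among the 38, the median difference along the direction of fasting was 1.49 in control mice and 1.10 in knockout mice, and the median ratio of knockout to control difference was 0.702. None of the 38 passed the interaction test. An unadjusted p under 0.05 was seen for 6 of them, all with the smaller change in knockout mice. Over all 17097 genes tested, 352 had such a p with the smaller change in knockout mice. All 38 were measured on the same 6 fasted and 8 fed arrays, so they are not 38 independent observations.

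**Figure D1:**
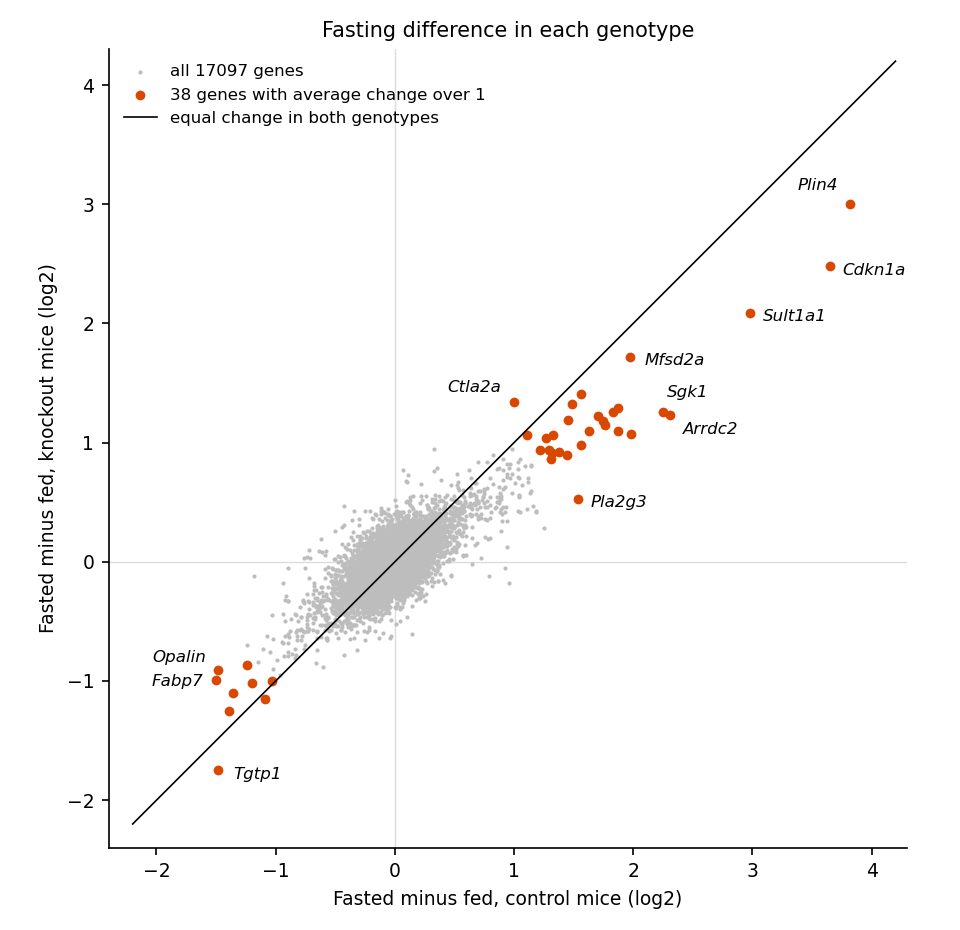
Fasted minus fed difference (log2) of every gene in control mice (horizontal axis) and knockout mice (vertical axis), with the line of equal change; the 38 genes with an averaged change over 1 are in orange. Of these 38 genes, 35 lie closer to 0 on the vertical than on the horizontal axis, among them Plin4, Cdkn1a and Sult1a1.

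The share was lower for genes with a smaller fasting change. It was 86.1% for 244 genes with an averaged change of 0.5 to 1 and 56.0% for 1433 called genes with a smaller change. Among genes that rose by over 1 it was 28 of 29, and for genes that fell by over 1 it was 7 of 9. Ctla2a, a protease inhibitor gene chosen after its values were seen, was the 1 rising gene on the other side, with 1.0 in control and 1.34 in knockout mice.

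Plin4 encodes a lipid droplet protein and had the largest averaged change. It was at 4.70, 4.90, 4.79 and 4.51 in control fed mice and at 8.41, 8.21 and 9.0 in control fasted mice. In knockout mice Plin4 was at 4.80, 4.71, 4.77 and 5.55 fed and at 8.01, 8.89 and 6.98 fasted. Knockout fasted replicate 2 lay within the control fasted range and replicates 1 and 3 below it. The difference was 3.82 ± 0.35 in control and 3.0 ± 0.35 in knockout mice, and the interaction was -0.81 ± 0.49, with a 95% interval of -1.87 to 0.25. It was -0.32 without knockout fasted replicate 3 and -1.28 without replicate 2.

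Cdkn1a, which encodes the cell cycle inhibitor p21, had the interaction farthest from 0 of all genes, at -1.17 ± 0.70 (95% interval -2.68 to 0.34). Its fasted values were 9.24, 9.49 and 10.24 in control mice and 8.30, 10.47 and 7.57 in knockout mice. Its fed values were 6.25, 6.07, 5.92 and 5.78 in control and 5.98, 6.13, 6.34 and 6.74 in knockout mice. The spread of the fasted knockout arrays thus is wider than the range of the control fasted arrays and covers it. Without knockout fasted replicate 2 the interaction of Cdkn1a was -2.01, and without knockout fasted replicate 3 it was -0.56.

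Sult1a1, which encodes a phenol sulfotransferase, had the smallest unadjusted p among the 10 genes with the largest rise. It was at 6.98, 6.61, 6.43 and 6.51 in control fed mice and at 9.55, 9.68 and 9.61 in control fasted mice. Knockout fed mice were at 7.09, 6.91, 6.86 and 7.85 and knockout fasted mice at 9.27, 9.49 and 9.04. Every fasted knockout value of Sult1a1 lay below every fasted control value. The genotypes also differed when fed: the fed mean was 6.63 in control and 7.18 in knockout mice, and the fasted mean 9.61 and 9.27. The interaction was -0.89 ± 0.29, with a 95% interval of -1.52 to -0.27, an unadjusted p of 0.00862 and an adjusted p of 0.9999 in limma. It was -0.67 without knockout fed replicate 4, the highest fed array, and -1.01 without control fed replicate 1.

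Phyhd1, which encodes a dioxygenase, had the same arrangement. Its fasted values were 8.29, 8.56 and 8.40 in control mice and 8.16, 8.26 and 8.17 in knockout mice. Its fed values were 6.77, 6.77, 6.49 and 6.31 in control and 7.09, 6.92, 6.59 and 7.16 in knockout mice, and these overlap. The fed mean was 6.58 in control and 6.94 in knockout mice, and the fasted mean 8.42 and 8.20. The interaction of Phyhd1 was -0.57 ± 0.19 (unadjusted p = 0.0105).

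For Sgk1, a glucocorticoid-induced kinase gene, and Ccn2, which encodes a matricellular protein, a single fed array changed the size of the interaction. Sgk1 was at 9.37, 9.41, 9.35 and 10.79 in knockout fed mice, where the last value is replicate 4, and at 9.22 to 9.42 in control fed mice. Its fasted values were 11.27, 11.60 and 11.76 in control and 10.48, 11.48 and 11 in knockout mice. The interaction was -0.99 ± 0.44 with all arrays and -0.64 without knockout fed replicate 4 (unadjusted p = 0.041 and 0.0325 in limma). Ccn2 was at 5.67, 5.48, 5.54 and 6.92 in knockout fed mice and at 5.40 to 6.10 in control fed mice. Its interaction was -0.92 ± 0.41 with all arrays and -0.58 without that array (unadjusted p = 0.0429 and 0.0276 in limma). The cortex and hippocampus score was also high on that array. The part of tissue outside the hypothalamus in these values was not tested.

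Arrdc2, which encodes an alpha-arrestin, had a difference of 2.31 in control and 1.23 in knockout mice and an interaction of -1.08 ± 0.48, which was -0.64 without the 3 fed arrays named above for Npy. For the other risers the interaction was -0.77 ± 0.49 for Sgk3, a second kinase of the SGK family, and -0.58 ± 0.56 for the transcription factor gene Zbtb16. Without knockout fasted replicate 3 they were -0.30 and -0.24, and without replicate 2 they were -1.36 and -1.14. Without control fasted replicate 3 Zbtb16 was at -0.20. Mfsd2a, the lysophospholipid transporter of the blood-brain barrier, was at 1.97 in control and 1.72 in knockout mice, with an interaction of -0.26 ± 0.24. Pla2g3, a secreted phospholipase gene chosen after its values were seen, had the lowest ratio of the 38, with 1.54 in control and 0.53 in knockout mice.

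**Figure D2:**
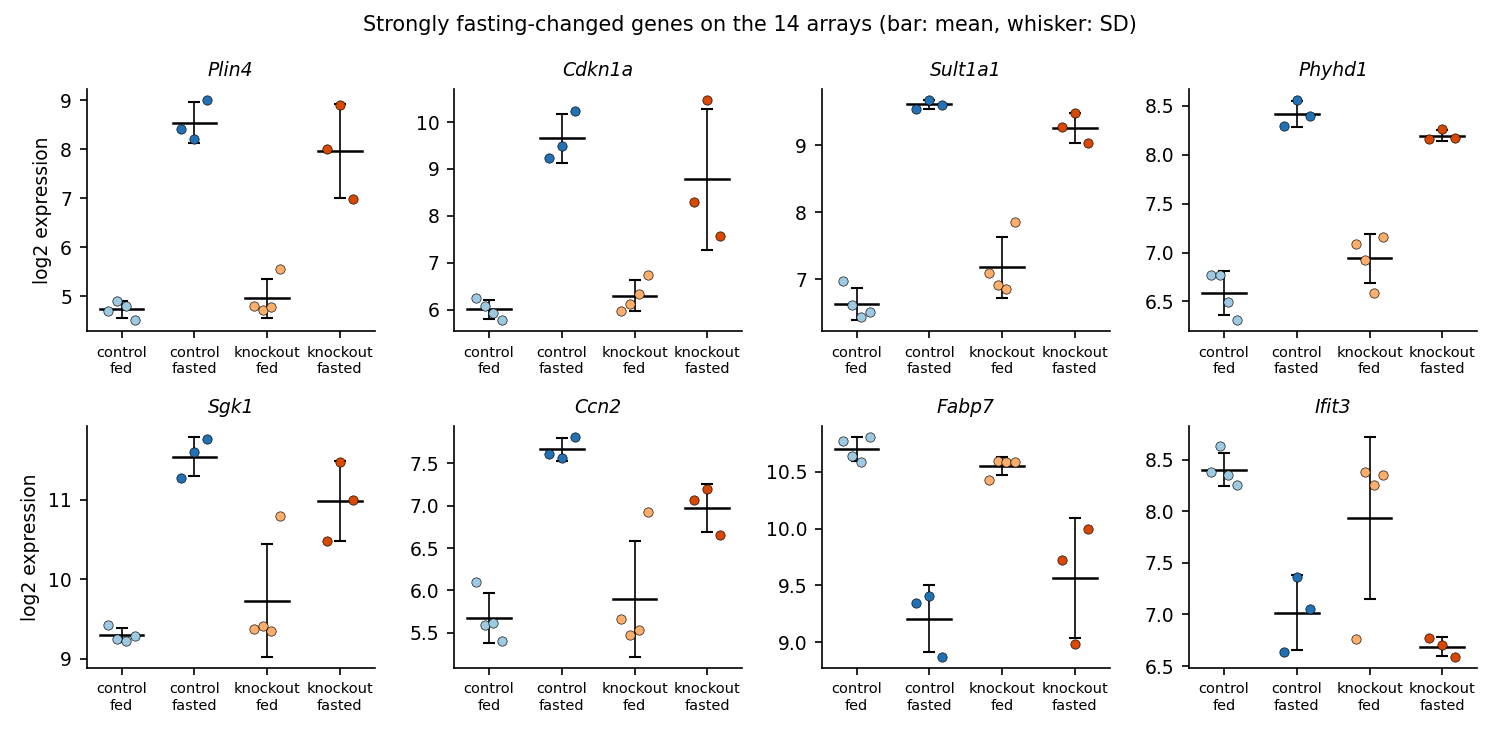
Log2 expression of 8 strongly fasting-changed genes on each of the 14 arrays, by group (points: arrays in replicate order; bar: mean; whisker: SD). Every knockout fasted value of Sult1a1 and Phyhd1 lies below the control fasted values, Cdkn1a spans 7.57 to 10.47 in knockout fasted mice, and Ifit3 has 1 knockout fed array at 6.76.

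The knockout fasted arrays were not alike in these 38 genes. The median difference of an array from its own fed mean, along the direction of fasting, was 1.32, 1.38 and 1.83 for control fasted replicates 1 to 3. It was 0.86, 1.63 and 0.85 for knockout fasted replicates 1 to 3. Knockout fasted replicates 1 and 3 each fell short of every control fasted array for 29 of the 38 genes, and replicate 2 for 4 of them. The score of the 38 genes was 0.785, 0.868 and 1.297 on the control fasted arrays and 0.421, 1.266 and 0.325 on the knockout fasted arrays, so the ranges overlap. On the fed arrays it was -0.745 to -0.627 in control and -0.696 to -0.332 in knockout mice, with knockout fed replicate 4 highest.

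Leaving out 1 array at a time, between 30 and 36 of the 38 genes had the smaller change in knockout mice. The median interaction along the direction of fasting, -0.46 with all arrays, was -0.28 without knockout fasted replicate 3, -0.30 without control fasted replicate 3 and -0.81 without knockout fasted replicate 2. For all 1715 fasting-called genes the share was 61.1%, and it was 49.9% without knockout fasted replicate 3 and 73.9% without knockout fasted replicate 2. Most of the 38 genes thus had the smaller change whichever array was left out, but its size varied with the array.

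**Figure D3:**
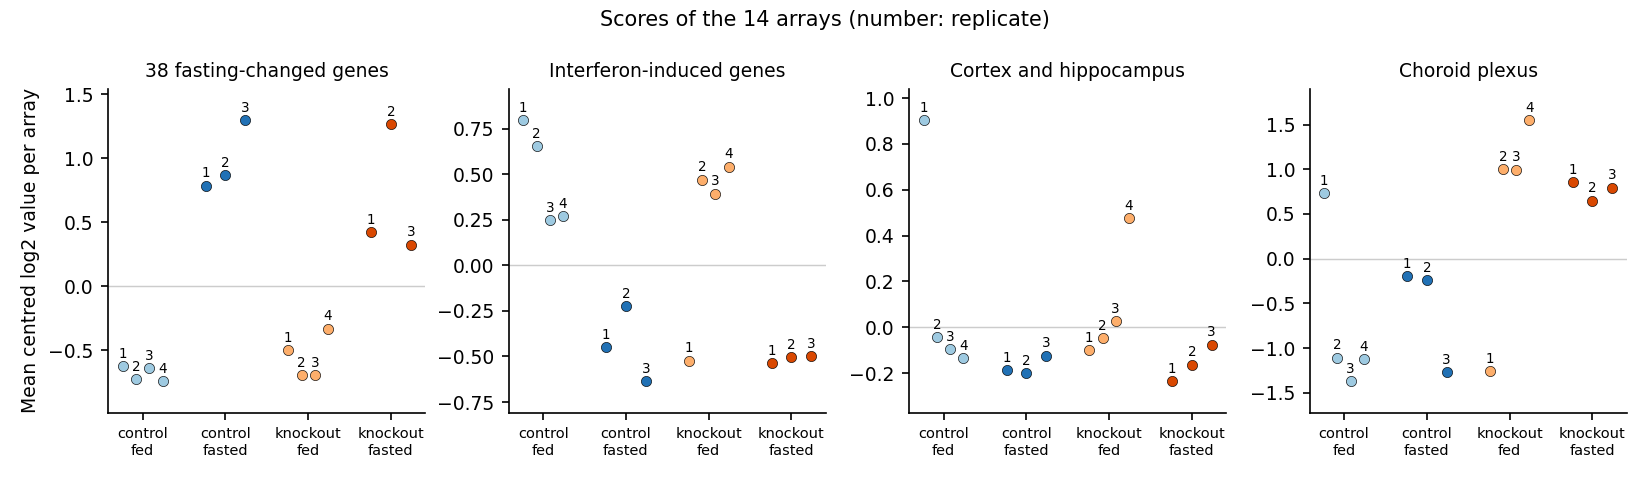
Scores of the 14 arrays (mean centred log2 value; numbers give the replicate) for the 38 strongly fasting-changed genes in the direction of fasting, 18 interferon-induced genes, and markers of cortex and hippocampus and of choroid plexus. Knockout fasted replicates 1 and 3 lie below the control fasted arrays in the first panel, and knockout fed replicate 1 lies among the fasted arrays in the second.

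Many of the largest risers are on the glucocorticoid-induced list, and many of the largest fallers are on the interferon-induced list. Both lists were chosen with earlier results of these data known, so this overlap is no independent result. The glucocorticoid receptor binds a palindromic element, and the factors of interferon-induced genes bind a different element. RefSeq promoter windows of GRCm38.p6, from 250 bases before to 50 bases after a start, were searched for both elements on both strands. The gene counts below cover windows of 7 of the 10 largest risers and 7 of the 10 largest fallers. The remaining genes of both groups were left out of these counts, which does not mean that they lack a window. Whether their windows hold either element was not tested. The percentages over all windows are therefore no matched background for these genes. The glucocorticoid response element, spelled here as AGAACA and TGTTCT with any 3 bases between, was found in 3 of 32851 windows (0.00913%), and 1 of these is at 1 of the 6 windows of Sgk1. Its half-site AGAACA, which the full element contains, was found in 19.0% of all windows. Among the risers it was in windows of Sgk1 and Sult1a1, and among the fallers in those of Oasl2 and Tgtp1. The interferon-stimulated element, spelled as a pair of GAAA with any 2 bases between, was found in 3.44% of all windows, and in those of Ifit1, Ifit3 and Tgtp1 among the fallers and of Sgk1 among the risers. The 4 windows below are shown because Sgk1 holds the full element, Sult1a1 only half-sites, and Ifit3 and Ifit1 the interferon element. Each is written 5′ to 3′ along the gene with the matched letters in capitals. The Sgk1 window is chr10:21993640-21993939 on the plus strand and its match begins at position -189 from the start. The Sult1a1 window is chr7:126676369-126676668 on the minus strand, with half-sites at -212 and -34. The Ifit3 and Ifit1 windows are chr19:34583279-34583578 and chr19:34640639-34640938 on the plus strand, with matches at -156 and -122, and at -104 and -85.
Sgk1: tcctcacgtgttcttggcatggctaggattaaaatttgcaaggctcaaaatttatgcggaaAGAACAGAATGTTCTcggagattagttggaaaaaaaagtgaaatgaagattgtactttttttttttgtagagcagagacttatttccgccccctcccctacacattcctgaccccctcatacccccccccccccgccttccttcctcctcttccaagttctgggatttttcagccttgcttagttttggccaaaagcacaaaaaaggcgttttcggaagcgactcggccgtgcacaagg
Sult1a1: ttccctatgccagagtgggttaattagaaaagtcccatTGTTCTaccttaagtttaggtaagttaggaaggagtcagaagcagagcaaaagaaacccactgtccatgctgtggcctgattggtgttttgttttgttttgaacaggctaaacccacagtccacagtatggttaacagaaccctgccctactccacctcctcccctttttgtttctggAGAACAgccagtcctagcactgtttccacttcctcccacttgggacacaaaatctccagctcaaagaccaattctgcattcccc
Ifit3: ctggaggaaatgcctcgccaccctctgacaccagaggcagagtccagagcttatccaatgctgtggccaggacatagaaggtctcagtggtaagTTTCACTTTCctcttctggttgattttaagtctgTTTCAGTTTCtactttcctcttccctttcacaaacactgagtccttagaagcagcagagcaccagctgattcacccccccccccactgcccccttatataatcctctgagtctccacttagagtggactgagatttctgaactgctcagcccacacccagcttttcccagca
Ifit1: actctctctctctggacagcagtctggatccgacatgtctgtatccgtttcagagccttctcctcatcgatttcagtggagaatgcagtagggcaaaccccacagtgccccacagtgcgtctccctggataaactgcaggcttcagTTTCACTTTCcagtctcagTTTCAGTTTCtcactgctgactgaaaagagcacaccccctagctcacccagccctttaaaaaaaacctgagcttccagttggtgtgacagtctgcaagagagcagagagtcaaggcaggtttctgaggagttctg
A match describes letters in the window and does not show binding.

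The glucocorticoid-induced genes were the list with the lowest median interaction. Of 29 measured members 28 were below 0, with a median of -0.39, where 7866 of all 17097 genes were below 0 and their median was 0.01. Their median fasting difference was 1.22 in control and 0.90 in knockout mice. At an unadjusted p under 0.05 there were 5 members below 0 and 0 above, against 1.64% and 2.18% of all genes, and 0 passed the adjusted threshold. These were Sult1a1, Sgk1 and Arrdc2 with the values above, the alpha-arrestin gene Arrdc3 at -0.34 ± 0.13, and Fam107a, which encodes an actin-binding protein, at -0.21 ± 0.09. The member above 0 was Lcn2, at 0.26. The list holds 15 of the 38 strongly changed genes, and its other 14 members had a median of -0.28, with 13 below 0. The 23 strongly changed genes outside the list had the smaller change in knockout mice in 20 cases. The score of the list was 0.672, 0.842 and 1.144 on the control fasted arrays and 0.197, 1.032 and 0.280 on the knockout fasted arrays. The median stayed below 0 in all 18 alternatives run, from -0.54 without knockout fasted replicate 2 to -0.21 without knockout fasted replicate 1.

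Nr3c1, the gene of the glucocorticoid receptor, had an interaction of 0.16 ± 0.11, which was 0.01 with its probe sets averaged. Fkbp5, the gene of a co-chaperone of this receptor and itself induced by glucocorticoids, had an interaction of -0.48 ± 0.35. Fkbp5 was at 9.20, 9.37 and 9.60 in control fasted mice and at 8.70, 9.85 and 8.44 in knockout fasted mice, so that replicate 2 was the highest of all. Without that array the interaction of Fkbp5 was -0.90, and without knockout fasted replicate 3 it was -0.20. FOXO and fasting-induced genes had 13 of 15 members below 0, against 7866 of all 17097 genes. The list had a median of -0.12, with 0 at an unadjusted p under 0.05. Pdk4 and Bcl6 are on this list and on the glucocorticoid-induced list. Txnip, which limits glucose uptake, was at 1.75 in control and 1.18 in knockout mice, with an interaction of -0.57 ± 0.45, which was -0.13 without control fasted replicate 3 and -0.93 without knockout fasted replicate 2. Klf15, a regulator of amino acid breakdown, was at -0.46 ± 0.30, and at -0.28 without knockout fasted replicate 1.

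Genes that fell on fasting gave values above 0 where the fall was smaller in knockout mice. Fabp7, which binds fatty acids in glial cells, was at 10.77, 10.64, 10.59 and 10.81 in control fed and at 9.34, 9.41 and 8.87 in control fasted mice. In knockout mice it was at 10.43, 10.60, 10.59 and 10.59 fed and at 9.72, 8.98 and 10 fasted. The interaction of Fabp7 was 0.51 ± 0.27, and here too knockout fasted replicate 2 lay within the control fasted range. Without it the interaction was 0.80, and without replicate 3 it was 0.29. Opalin, a gene of mature oligodendrocytes, was at 0.57 ± 0.32 for the chosen probe set, against 0.18 when its probe sets were averaged and 0.27 without knockout fasted replicate 3. Ugt8a, which makes the myelin lipid galactosylceramide, differed by -1.03 in control and -1.0 in knockout mice, with an interaction of 0.04 ± 0.22 and an interval of -0.44 to 0.52.

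Of 18 measured interferon-induced genes 15 were above 0, against 9216 of all 17097 genes. Interferon-induced genes had a median interaction of 0.20, with 0 at an unadjusted p under 0.05. Their median fasting difference was -1.08 in control and -0.72 in knockout mice. This rested on knockout fed replicate 1, which had a score of -0.523, against 0.249 to 0.795 on the other fed arrays and -0.637 to -0.224 on the fasted arrays. Without it the median interaction was -0.01. For Ifit3, a gene of the antiviral response, knockout fed mice were at 6.76, 8.38, 8.25 and 8.35 and control fed mice at 8.38, 8.63, 8.35 and 8.25. Fasted mice were at 6.64, 7.36 and 7.05 in the control and at 6.77, 6.70 and 6.59 in the knockout group. Ifit3 had an interaction of 0.14 ± 0.44. The low fed array is also the only fed one in the low series of title numbers, and the part of that series in the result was not tested.

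Microglia and macrophage markers had a median of 0.20, with 11 of 15 above 0, against 9216 of all 17097 genes. At an unadjusted p under 0.05 there were 3 above 0 and 0 below, against 2.18% and 1.64% of all genes. Tyrobp, an adaptor of microglial receptors, was at 8.42, 8.27, 8.25 and 8.50 in control fed and at 7.76, 8.0 and 7.76 in control fasted mice. In knockout mice it was at 8.07, 8.16, 8.16 and 8.30 fed and at 7.97, 7.88 and 8.15 fasted. Fed and fasted values are separate in control mice and overlap in knockout mice, and the interaction of Tyrobp was 0.35 ± 0.13 (unadjusted p = 0.0162). Csf1r, a growth factor receptor, was at 0.22 ± 0.10, and Ly86, a gene of macrophages, at 0.29 ± 0.13. Without knockout fasted replicate 3 the median of this list was 0.05.

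The integrated stress response is the program that cells start when mitochondria or the endoplasmic reticulum are impaired. Its list of 22 measured genes had a median of 0.00. At an unadjusted p under 0.05 there were 3 members above 0 and 0 below, against 2.18% and 1.64% of all genes. Atf5, a transcription factor of the mitochondrial stress response, was at 7.11, 7.07, 7.02 and 7.04 in control fed and at 6.97, 7.05 and 7.02 in control fasted mice. In knockout mice Atf5 was at 6.78, 6.82, 7.03 and 6.88 fed and at 7.09, 7.10 and 7.11 fasted. These knockout ranges do not overlap, and the interaction was 0.27 ± 0.08 (unadjusted p = 0.00638).

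Sesn2, a stress-induced inhibitor of mTOR, differed by -0.17 in control and 0.40 in knockout mice, with an interaction of 0.56 ± 0.21. Ddit3, which encodes the stress factor CHOP, differed by 0.02 and 0.27, with an interaction of 0.25 ± 0.10. For Atf5, Sesn2 and Ddit3 the knockout fed mean was the lowest of the 4 groups, at 6.88, 6.2 and 8.43. The fasted knockout mean lay at 7.10, 6.6 and 8.70. The 20 genes of the endoplasmic reticulum stress list had 0 at an unadjusted p under 0.05 and a median of 0.04.

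**Figure D4:**
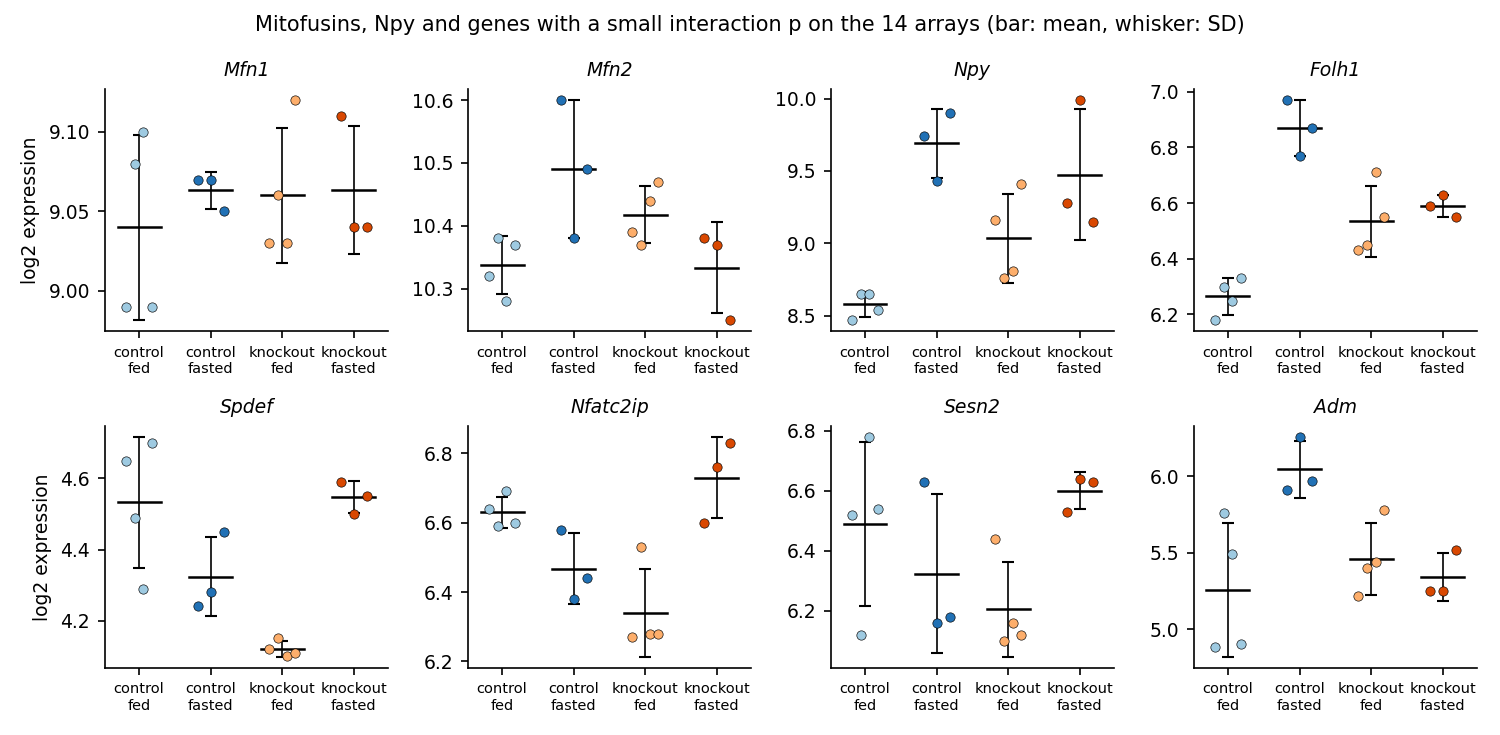
Log2 expression of the mitofusin genes Mfn1 and Mfn2, of Npy, and of 5 genes with a small unadjusted interaction p, on each of the 14 arrays by group (points: arrays in replicate order; bar: mean; whisker: SD). Mfn1 stays between 8.99 and 9.12, while Folh1 differs by 0.60 on fasting in control and 0.06 in knockout mice.

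The 12 genes per direction with the smallest unadjusted interaction p were chosen by that p, so their values are a description. Folh1, a glutamate carboxypeptidase gene, had the smallest p, 0.000122. It was at 6.18, 6.30, 6.25 and 6.33 in control fed and at 6.97, 6.77 and 6.87 in control fasted mice. Knockout mice were at 6.43, 6.45, 6.71 and 6.55 fed and at 6.59, 6.63 and 6.55 fasted. The difference was 0.60 in control and 0.06 in knockout mice, and the interaction of Folh1 was -0.55 ± 0.10.

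Below 0, Folh1 was followed by Slco1b2 (-0.40), Adgrf4 (-0.40), the glutathione transferase gene Mgst1 (-0.38), the interferon regulatory factor gene Irf2 (-0.38) and Zfp263 (-0.35). Tubd1 (-0.51), Muc15 (-0.31), Rhpn2 (-0.97), Nlrp9c (-0.35), Zfy1 (-0.40) and S100g (-0.28) complete the 12. With the probe sets of a gene averaged, Slco1b2 turned to 0.03, and Mgst1 was at -0.21, Nlrp9c at -0.17 and Zfp263 at -0.30. Mgst1 was already as high in knockout fed mice, at 9.45 to 9.57, as in control fasted mice, at 9.30 to 9.61, and lay at 8.92 to 9.13 in control fed mice.

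Above 0, Spdef led with 0.64 ± 0.12. It was at 4.65, 4.49, 4.29 and 4.70 in control fed, 4.24, 4.28 and 4.45 in control fasted, 4.12, 4.15, 4.10 and 4.11 in knockout fed and 4.59, 4.50 and 4.55 in knockout fasted mice. Nfatc2ip, a partner of the factor NFAT, was at 6.64, 6.59, 6.69 and 6.60 in control fed and 6.58, 6.38 and 6.44 in control fasted mice, and at 6.27, 6.53, 6.28 and 6.28 in knockout fed and 6.60, 6.76 and 6.83 in knockout fasted mice. Both genes were lower on fasting in the control mean and higher in the knockout mean. With the mean of its probe sets Nfatc2ip was at 0.25 instead of 0.55.

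Defb29 (0.42), Spp2 (0.90), Blmh (0.27), Zfp428 (0.32), Dppa3 (0.28), Pcdhb19 (0.36), Tmem198b (0.41) and Styxl1 (0.38) were further genes above 0. With probe sets averaged, Spp2 was at 0.37, Tmem198b at 0.16 and Blmh at 0.14. Mcam, an adhesion gene of vessels, differed by -0.72 in control and -0.14 in knockout mice. Pdia3, a disulfide isomerase gene, differed by -0.10 in control and 0.42 in knockout mice. Of the 24 leading genes, 10 had a mean under 5, near the median of the arrays, where 38.1% of all genes lie. S100g (3.73), Nlrp9c (3.78), Dppa3 (3.79), Styxl1 (3.97) and Slco1b2 (4.06) were close to the background signal, whose median was 3.64. Defb29 (4.08), Muc15 (4.13), Spp2 (4.19), Spdef (4.37) and Adgrf4 (4.42) lay little above it.

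Adm, which encodes the vasodilator peptide adrenomedullin, had the smallest p of all members of the gene lists, 0.00628. It was at 4.88, 5.76, 5.49 and 4.90 in control fed and at 5.91, 6.26 and 5.97 in control fasted mice. Knockout mice were at 5.22, 5.40, 5.44 and 5.78 fed and at 5.25, 5.25 and 5.52 fasted. The difference was 0.79 in control and -0.12 in knockout mice, with an interaction of -0.91 ± 0.28. Rarres2, which encodes chemerin and is on the same list of ependymal and tanycyte genes, was at 0.49 ± 0.17. Vim, a filament gene of astrocytes and tanycytes, was at 0.37 ± 0.13 (unadjusted p = 0.0149).

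The lists not yet described had medians between -0.07 and 0.17, beside 0.01 for all genes. Of all genes, 3.82% had an unadjusted p under 0.05. Endothelium and pericyte genes had the median of 0.17, with 0 of 13 at an unadjusted p under 0.05, and Flt1, a VEGF receptor gene, at 0.38 ± 0.20. Immediate early genes had 1 of 21 at an unadjusted p under 0.05, Arc, a gene of synaptic activity, at 0.54 ± 0.24. Dusp1, a phosphatase gene also induced by glucocorticoids, was at -0.60 ± 0.34. Of clock genes, 1 of 18 had an unadjusted p under 0.05, the repressor gene Nfil3 at 0.29 ± 0.13. In the growth hormone and IGF list 1 of 14 had an unadjusted p under 0.05, Stat5a, a transducer of growth hormone, at -0.29 ± 0.11.

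Lipid metabolism gave 0 of 16 for fatty acid oxidation and ketone bodies, 0 of 13 for fatty acid synthesis and 0 of 19 for cholesterol synthesis at an unadjusted p under 0.05. Their medians were -0.02, -0.06 and -0.04. The cholesterol list had the same median fasting difference in both genotypes, -0.18. Lipid droplet and lipolysis genes gave 0 of 17, with G0s2, an inhibitor of lipolysis, at 0.19 ± 0.09. Heat shock chaperones gave 0 of 13 and lay between -0.10 and 0.13. Autophagy and lysosome genes gave 0 of 18, with the regulator Tfeb at -0.27 ± 0.13, and antioxidant genes 0 of 16, with Gpx3, a secreted glutathione peroxidase, at -0.34 ± 0.18.

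Some markers of neighbouring regions had wide errors. Choroid plexus markers had a median of 0.01, which ran from -0.85 without control fed replicate 1 and knockout fed replicates 1 and 4 to 0.31 without knockout fed replicate 4 alone, with Sostdc1 at 0.28 ± 0.90 and Aqp1 at -0.15 ± 0.55. Cortex and hippocampus markers had a median of 0.13, which was -0.15 without control fed replicate 1, and 0 of 11 at an unadjusted p under 0.05. Pituitary markers gave 0 of 9, with Cga, the shared subunit of pituitary glycoprotein hormones, at 0.62 ± 1.10. Neuron markers lay between -0.17 and 0.09, and astrocyte markers gave 0 of 12, with the connexin gene Gjb6 at -0.35 ± 0.17. Blood cell markers had 3 of 8 at an unadjusted p under 0.05, against 3.82% of all genes. These were Slc4a1 at 0.37 ± 0.16, Cd3e at -0.27 ± 0.11 and Cd79a at -0.20 ± 0.09, at levels near background.

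**Figure D5:**
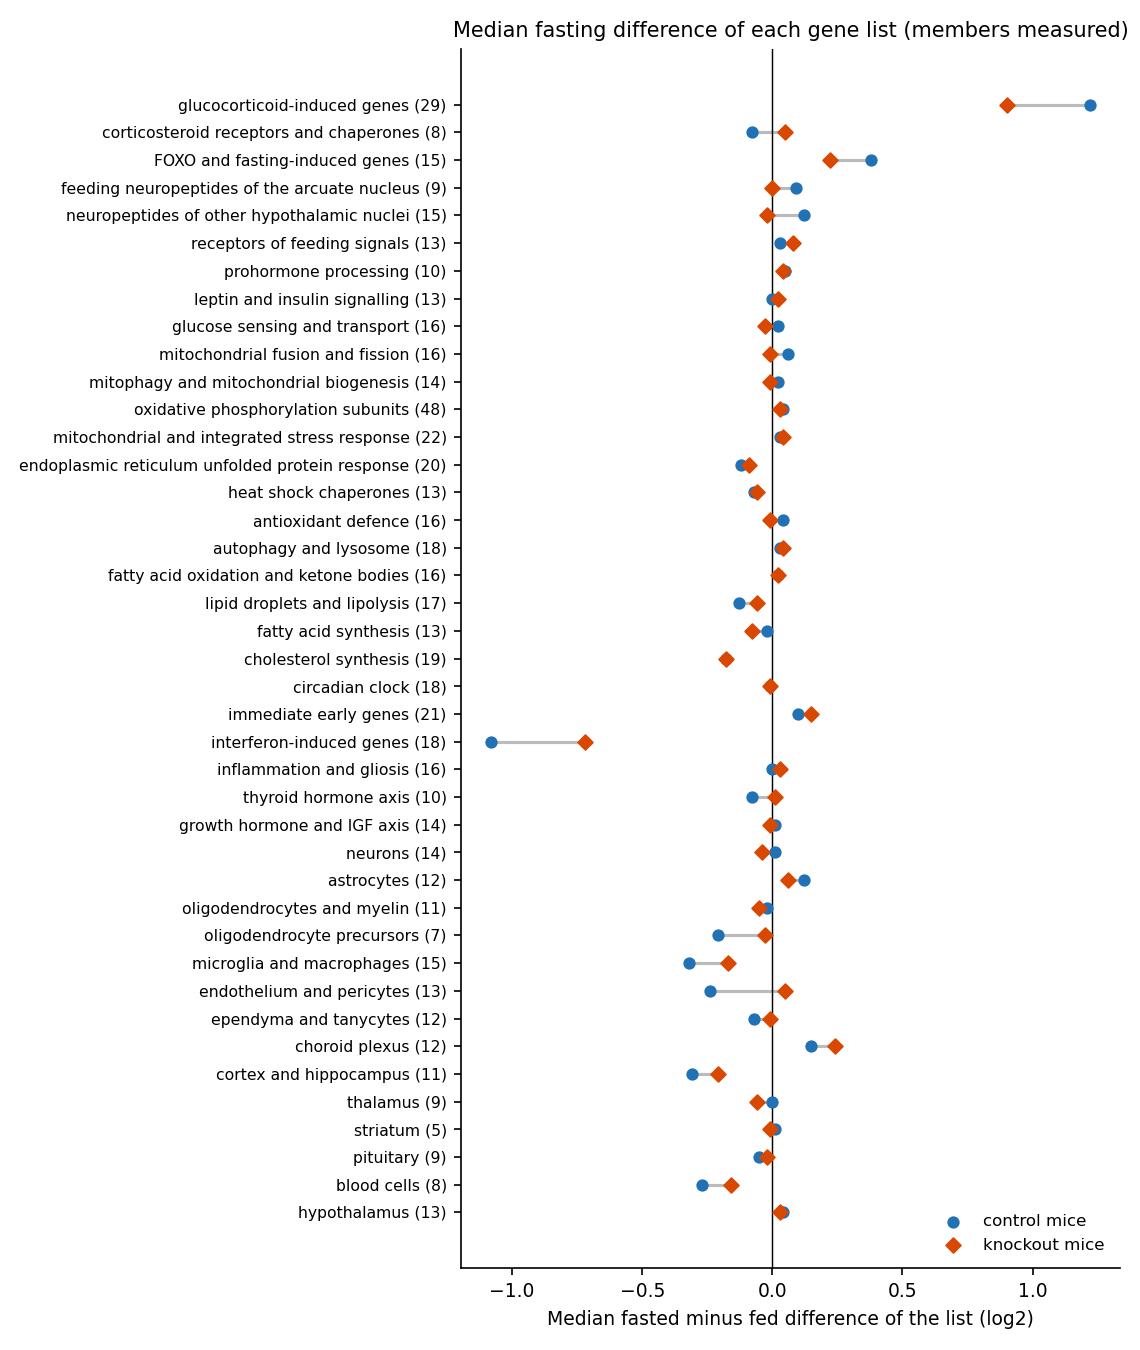
Median fasted minus fed difference (log2) of the measured members of each of 41 gene lists in control mice (circles) and knockout mice (diamonds); the number of members is in brackets. Glucocorticoid-induced genes (1.22 and 0.90) and interferon-induced genes (-1.08 and -0.72) lie farthest from 0 and farthest apart.

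A single gene passed in an alternative fit. Tmem87a, a membrane protein gene on chromosome 2 chosen after its values were seen, was at 9.08, 8.99, 9.06 and 8.93 in control fed and at 9.01, 8.97 and 8.94 in control fasted mice. In knockout mice it was at 7.96, 9.04, 8.86 and 8.91 fed and at 8.09, 8.15 and 7.93 fasted. All 3 fasted knockout arrays and knockout fed replicate 1 thus lay about 1 unit below the other 10 arrays. The interaction was -0.59 ± 0.27 with all arrays and -0.84 without knockout fed replicate 1, with an adjusted p of 0.0269 in limma. The 4 low arrays are the knockout arrays of the low series of title numbers.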

How the data were processed

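Biotin-labelled RNA of 14 hypothalamus samples, from 150 ng of total RNA each, was hybridised to Affymetrix arrays. The values deposited by the authors are on a log2 scale; the submitters' processing notes name RMA and affy, without versions. RMA corrects background, brings arrays to a common distribution and compresses differences of dim probe sets. Medians of the arrays were 4.98 to 5.05. Across probe sets, arrays correlated at 0.9908 to 0.9968 (Pearson), and at most 2.9% of values were identical in any pair. The number of arrays limits the precision.

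Gene names came from the platform annotation: 1 gene for 28898 probe sets, several for 551 and none listed for 15692. RefSeq (GRCm38.p6) held 99.3% of the IDs. The interaction was fitted with limma 3.58.1 in R 4.3.3 (lmFit on 1 coefficient per group, contrast, eBayes; 10 residual and 3.27 prior degrees of freedom), two-sided, and checked on simulated data. Members, lists and tests were chosen with earlier results of these data known, so the 41 lists (579 of 654 genes measured) were given no test. Named were Mfn1, Mfn2, Pomc, Cartpt and Npy, the 12 genes per direction with the smallest interaction p, the 10 per direction with the largest averaged fasting change, and up to 3 members per list with the smallest p; clone and model symbols were passed over. Some genes of these lists are not analysed here. Replicates are numbered in the order of the samples.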

Additional observations from a re-analysis of the deposited data

Results flagged for a closer look

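In the 2 groups of 4 arrays, 28 values of named genes stood far from the other 3 arrays of their group by Dixon's criterion, among 334 groups examined, where chance gives about 1 in 20.

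Knockout fed replicate 1 stood apart most often, in 13 cases. It was low for the interferon-induced genes Ifit3 (6.76), Iigp1 (4.26), Ifi27l2a (5.23), Oasl2 (4.59), Gbp2 (5.14), Rsad2 (5.53) and Cxcl10 (4.0). It was also low for Fabp7 (10.43), the choroid plexus gene Sostdc1 (4.83) and Tmem87a (7.96), and high for Pmch (12.63), Avp (11.27) and Cyp51 (9.15).

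Knockout fed replicate 4 was high for Plin4 (5.55), Sgk1 (10.79), Ccn2 (6.92) and the pituitary gene Cga (6.55). Knockout fed replicate 2 was high for Nfatc2ip (6.53), Tubd1 (5.48) and Moxd1 (5.43).

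Among control fed arrays, replicate 1 was low for the arcuate transcription factor gene Isl1 (6.73) and high for the astrocyte gene Fgfr3 (10.29). Replicate 2 was low for Sst (9.86) and high for Gabpa (8.56), Ddit3 (8.72) and Olig2 (8.46). Replicate 3 was high for Pde10a (9.53) and replicate 4 for Zfy1 (5.34).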

How the results depend on the processing

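The count of 0 genes past the threshold was also found at an adjusted p of 0.1, with the 40% of genes of lowest mean left out, the mean of probe sets, a trended and robust prior, array weights, array medians subtracted, and the cortex, choroid plexus or Actb 3' to 5' value as a covariate. It was 1 (Tmem87a) with the number series of the titles as a covariate, which for this contrast is the same as leaving out knockout fed replicate 1. Without each array in turn it ranged from 0 to 1, and the genes at an unadjusted p under 0.05 numbered 950 without knockout fasted replicate 2, against 653. The share of the 1715 fasting-called genes with a smaller change in knockout mice ranged from 49.9% to 73.9% without each array in turn. It was 54.3% without control fed replicate 1 and knockout fed replicates 1 and 4 together, an alternative chosen after seeing the data. For the 38 strongly changed genes, whose alternatives were also chosen after seeing the data, the share ranged from 78.9% to 94.7%. Of 167 named genes, 145 kept their sign in every alternative run, and 13 of 41 list medians did so in 18 alternatives. Many of the named genes were chosen by their interaction p on these same arrays, which favours a kept sign. Their count is therefore a description and no check of the interaction. No paired analysis was possible because the title numbers are all different and pair no samples. With 3 or 4 arrays a group, the median half-width of the unadjusted 95% interval was 0.27.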
